A study of Mus musculus with 12 samples.

Results

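Fabp3, Fabp4 and Fabp5 encode 3 fatty acid binding proteins, and they were followed across mouse ovaries with and without tumors. The genes were chosen by their symbols, with earlier results of these same arrays known, so their levels and differences are given as a description and carry no test. The gene lists set beside them were also chosen with those results known. Adjusted p-values of list genes come from the model over all genes and are no independent test of the lists. The value table held 6 probe sets for them among 16376, with 1 for Fabp3, 3 for Fabp4 and 2 for Fabp5, and all 6 are described. In the comparisons across genes they were 3 of 10949 genes.

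Each array measured the RNA of 1 ovary sample from a female mouse aged 23 weeks, taken at diestrus, the quiet phase of the estrous cycle. The 6 control arrays were Pgrcre/+ ovaries without tumor, and the 3 arrays of stage I and the 3 arrays of stage II were tumor ovaries of the genotype Pgrcre/+PgrBLsL/+. All 12 mice therefore carried the Cre allele of the progesterone receptor gene, Pgr, from which the recombinase is made in cells that express the receptor. The series title speaks of constitutive expression of progesterone receptor isoforms. Against the controls, the PgrBLsL allele and the tumor stage cannot be told apart, while the 2 stages share their genotype. Replicates are numbered as biological replicates in the labels, which do not say whether mice shared a litter or a day.

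Fatty acid binding proteins are small cytosolic proteins that hold a long-chain fatty acid in a barrel of beta strands and carry it between membranes, lipid droplets, mitochondria and the nucleus. Fabp3 is the form known from heart and skeletal muscle, Fabp4 the form known from adipocytes, macrophages and the endothelium of small vessels, and Fabp5 the epidermal form, which is found in many epithelia and in macrophages. Fabp4 and Fabp5 can also deliver ligands to nuclear receptors of the PPAR family. In the ovary, fatty acids feed oxidation in maturing oocytes and the lipid droplets of steroid-producing cells.

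Of the 3 genes, Fabp3 had an entry in the RefSeq promoter table used here, and its sequence is shown as context for the gene, whatever its levels. These are the 250 bases before its RefSeq start, on the plus strand of build GRCm38.p6 at chr4:130308488-130308737, written 5′ to 3′ with the matches to 2 searched motifs in capitals.
Fabp3: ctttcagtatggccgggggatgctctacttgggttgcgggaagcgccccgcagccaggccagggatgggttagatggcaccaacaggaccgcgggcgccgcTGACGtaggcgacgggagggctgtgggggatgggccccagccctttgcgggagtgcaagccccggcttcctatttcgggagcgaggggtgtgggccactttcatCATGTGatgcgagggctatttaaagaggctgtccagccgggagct
The stretch had 64.8% G and C bases, against a median of 52.4% over 32536 promoter windows of the same length, and 17 CG dinucleotides against a median of 6. Both strands were searched for each motif. The first match in capitals is TGACG, a half-site of the cyclic AMP response element, at position -149 from the start, which occurs in 17.9% of all windows. The second is an E-box, CANNTG, at position -45, which occurs in 66.2% of windows. The nuclear receptor half-site AGGTCA (14% of windows), the steroid receptor half-site AGAACA (16%), TATAAA (12.3%) and CCAAT (33.8%) had no match here, and neither did the PPAR repeat, made of 2 copies of that AGGTCA half-site with 1 base between them, found in 0.0338% of windows. These matches describe letters in a window and not sites in use. The motifs did not overlap each other in this window.

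Fabp3 was higher than in the controls at both stages. Its probe set 1416023_at read 9.23, 9.86, 10.37, 9.66, 10.10 and 9.92 in control replicates 1 to 6, with a median of 9.89, on the deposited log2 scale. It read 12.07, 11.48 and 10.96 in stage I, and 12.01, 12.39 and 12.32 in stage II. Every tumor array lay above the highest control, and stage I replicate 1 reached the level of stage II. Group means were 9.86 ± 0.39 (SD, n = 6), 11.50 ± 0.55 (SD, n = 3) and 12.24 ± 0.20 (SD, n = 3). Stage I stood 1.65 ± 0.25 above control on the log2 scale (difference ± standard error of the model, 3.14-fold), and stage II stood 2.39 ± 0.25 above control (5.23-fold). Stage II was 0.74 ± 0.29 above stage I (1.67-fold), with arrays that overlapped because of stage I replicate 1. That difference was 1.02 without stage I replicate 1 and 0.47 without stage I replicate 3. The order of levels was control, stage I, stage II, and the last 2 neighbours overlapped.

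Fabp4 was highest in stage II, and its stage I arrays lay at the upper end of the controls. Probe set 1417023_a_at, the brightest of its 3, read 7.64, 9.53, 8.96, 9.72, 10.28 and 9.94 in control replicates 1 to 6, with a median of 9.62. It read 10.58, 10.09 and 10.15 in stage I, and 12.16, 11.82 and 11.46 in stage II. The stage II arrays all lay above every other array, while 2 of the 3 stage I arrays lay below the highest control. The control level varied most of all, at 9.34 ± 0.95 (SD, n = 6), against 10.27 ± 0.26 in stage I and 11.81 ± 0.35 in stage II (SD, n = 3 each). Stage I was 0.93 ± 0.45 above control on the log2 scale, a difference that fell to 0.59 without control replicate 1, the lowest array. Stage II was 2.47 ± 0.45 above control (5.54-fold), or 2.13 without control replicate 1, and 1.54 ± 0.52 above stage I (2.91-fold).

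The other 2 Fabp4 probe sets were dim and showed smaller differences. Probe set 1424155_at had a mean of 4.74 ± 0.53 in control (SD, n = 6), 5.11 ± 0.20 in stage I and 6.26 ± 0.47 in stage II (SD, n = 3 each). Its stage II arrays, at 6.80, 6.08 and 5.92, lay above the highest control at 5.36 and the highest stage I array at 5.28. Its stage II difference from control was 1.52 ± 0.28 on the log2 scale. Probe set 1425809_at had group means of 4.84 ± 0.21, 4.75 ± 0.12 and 5.09 ± 0.17, and its stage II arrays, at 5.22, 4.90 and 5.16, overlapped the controls. Its stage II difference from control was 0.25 ± 0.12. The mean signals of 1424155_at and 1425809_at stood at the 24.7 and 20.8 percentiles of all probe sets with 1 gene symbol, against 89.9 for 1417023_a_at, and no detection calls were used here. The 3 probe sets thus gave the same order of the stage II and control means and disagreed on its size.

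Fabp5 differed between stage II and both other groups, while stage I was split. Probe set 1416021_a_at read 11.20, 11.56, 11.54, 11.55, 11.48 and 11.52 in control replicates 1 to 6. It read 12.04, 11.35 and 11.42 in stage I, and 12.27, 12.28 and 12.15 in stage II. Stage I replicate 1 lay above all controls and the other 2 stage I arrays lay within their range, whereas all stage II arrays lay above every other array. Means were 11.47 ± 0.14 (SD, n = 6), 11.60 ± 0.38 and 12.23 ± 0.07 (SD, n = 3 each). The stage I difference from control was 0.13 ± 0.13 on the log2 scale and became -0.09 without stage I replicate 1, so its direction rests on that array. Stage II was 0.76 ± 0.13 above control (1.69-fold) and 0.63 ± 0.15 above stage I (1.55-fold). The second probe set, 1416022_at, gave a stage II difference of 0.88 ± 0.14 from control and 0.70 ± 0.16 from stage I, with all 3 stage II arrays at 10.97 or higher and the controls between 9.77 and 10.26.

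**Figure D1:**
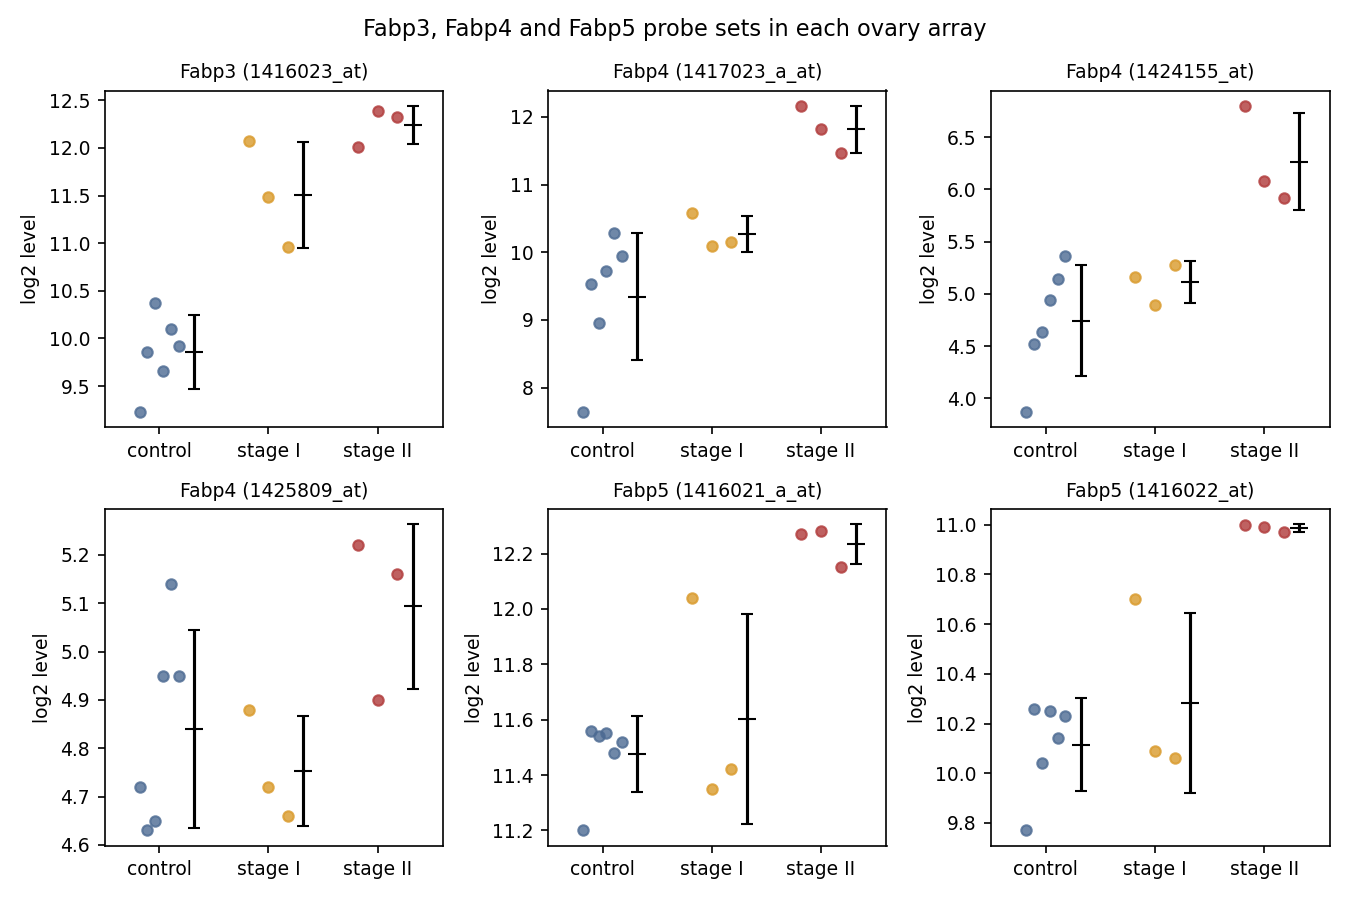
Log2 level (vertical axis, a separate range in each panel) of the 6 probe sets of Fabp3, Fabp4 and Fabp5 in each ovary array, with 6 control, 3 stage I and 3 stage II points in replicate order; the crossbar is the group mean and the bar 1 SD. For Fabp3 all stage I and stage II points lie above the controls, for the brightest Fabp4 and both Fabp5 probe sets only stage II does, and control replicate 1 is the lowest control in 5 of the 6 panels.

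The same arrays recurred at the edges of the 3 genes. Control replicate 1 was the lowest control for Fabp3, Fabp4 and Fabp5, and stage I replicate 1 was the highest stage I array for all 3. Over the 12 arrays the levels of Fabp3 and Fabp4 had a Pearson r of 0.84, Fabp3 and Fabp5 0.82, and Fabp4 and Fabp5 0.86. These values describe the difference between groups as much as that between arrays. Taken as deviations from each group's mean, r was 0.45, 0.70 and 0.56.

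Among all 10949 genes ordered from the highest difference down, Fabp3 stood at place 24 in stage I against control, Fabp4 at 55 and Fabp5 at 1192. In stage II against control their places were 81, 72 and 369, and in stage II against stage I they were 339, 109 and 423. The test across all genes was a linear model (limma) with a threshold of 0.05 on the adjusted p. In stage I against control it called 0.192% of genes higher, 21 in all, and 1 of the 3 Fabp genes, Fabp3, was among them. Genes whose stage I arrays all lay above all controls made up 2.23%, and Fabp3 was again the 1 member. In stage II against control the model called 9.81% of genes higher, and all 3 members were among them; 9.97% of genes had all stage II arrays above all controls, as had all 3 members. In stage II against stage I it called 6.54% of genes higher, with Fabp5 the member among them, and 14.5% of genes did not overlap in that direction, with Fabp4 and Fabp5 among them. Nothing is read from these counts, since these contrasts were known when the genes were chosen. The member call in stage I was lost without stage I replicate 1 or 2, and that in stage II against stage I without stage I replicate 2 or 3 or stage II replicate 1 or 3. With the 2 stages fitted alone Fabp4 was the member called in stage II against stage I, and with array weights all 3 were. With every probe set as its own row, the Fabp4 probe set 1424155_at was called there (1.16 ± 0.33), and 1425809_at was not (0.34 ± 0.14).

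Of the wider family of intracellular lipid binding proteins, 5 of 12 other genes were measured, and 1, Rbp2, rose in stage II. Rbp2, the cellular retinol binding protein of the intestine, read 4.83 to 5.54 in control with a mean of 5.17, and 6.77, 6.24 and 6.32 in stage II. Its difference was 1.27 ± 0.16 on the log2 scale (limma adjusted p = 0.00023), and it was 1.04 ± 0.19 above stage I (adjusted p = 0.0056). The stage II arrays stood clear of both other groups. The liver form Fabp1 differed by 0.12 (adjusted p = 0.54), the intestinal Fabp2 by -0.03 (0.83), Fabp9 by -0.02 (0.90) and Fabp12 by 0.08 (0.42), all as limma log2 differences of stage II from control. The median over the 5 was 0.08, beside -0.01 over all genes, and 1 of 5 compares with 9.81% of all genes called higher.

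Fabp4, Fabp9, Fabp12 and Fabp5 lie in 1 cluster on chromosome 3, in the RefSeq gene order of GRCm38.p6, and Fabp3 lies on chromosome 4. Fabp9 and Fabp12 are the direct neighbours of Fabp4 and showed the small differences given above. Apart from Fabp genes, none of the 3 measured genes nearest to Fabp4 or Fabp5 on each side passed the limma test in any comparison. These were Tpd52, Zfp704, Pag1, Impa1 and Zfand1, with up to 15 other genes between (Tpd52 and Fabp5). Their stage II differences from control ran from -0.14 to 0.13. Beside Fabp3, the nearest measured gene on 1 side was Tinagl1, a secreted matrix protein, which rose by 1.92 ± 0.14 in stage II (limma adjusted p = 2.5e-06). Col16a1, Ptp4a2, Snrnp40 and Nkain1 around it fell by 0.52, 0.33, 0.38 and 0.37 (limma adjusted p = 0.00045, 0.0028, 0.0058 and 0.017), and the Nkain1 call ended without stage II replicate 1 (-0.27, adjusted p = 0.089). Sdc3 differed by 0.10 (adjusted p = 0.39). Fabp3 and Tinagl1 were thus higher and 4 of the other 5 measured neighbours lower in stage II. From 2 (Snrnp40) to 21 (Ptp4a2) other genes lay between Fabp3 and these measured neighbours.

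The lists of related genes describe the fatty acid pathway around the Fabp genes. Over all 15 lists of related genes and cell type markers, which shared 130 distinct measured genes, limma called 0 genes in stage I against control, with 14 at an unadjusted p below 0.05. It called 21 higher and 25 lower in stage II against control, and 13 higher and 17 lower in stage II against stage I. Of all genes, 0% were called lower in stage I, 11.2% lower in stage II against control and 5.97% lower in stage II against stage I.

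Upstream of the Fabp proteins, fatty acids enter the cell through carriers and are activated by acyl-CoA synthetases. Of 13 measured genes of uptake and activation (of 20 listed), 3 rose and 3 fell in stage II against control, with a median of 0.02. Cd36, a fatty acid translocase of the plasma membrane, read 9.11 to 9.63 in the controls, 10.85, 9.68 and 9.40 in stage I, and 11.70, 11.52 and 11.51 in stage II. As for Fabp4 and Fabp5, stage I replicate 1 was the high array of its group and stage II lay above every other array. Cd36 rose by 2.28 ± 0.24 in stage II (4.84-fold, limma adjusted p = 4.4e-05), and its stage I difference was 0.67 ± 0.24 (adjusted p = 0.62). Over the 12 arrays Cd36 and Fabp5 levels had a Pearson r of 0.94, and 0.79 as deviations from group means. Against Fabp4 those values were 0.83 and 0.23, and against Fabp3 0.87 and 0.47.

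Lpl, the lipoprotein lipase that frees fatty acids from circulating triglyceride, went the other way. It fell by 0.68 ± 0.12 on the log2 scale in stage II (limma adjusted p = 0.0023), from 10.94 to 11.47 in the controls to 10.28 to 10.68. Acsl5, an acyl-CoA synthetase, rose by 0.43 ± 0.10 (adjusted p = 0.011), a call lost without stage II replicate 3 (0.31, adjusted p = 0.068). Vldlr, a lipoprotein receptor, rose by 0.45 ± 0.14 (limma adjusted p = 0.043), a call lost without several single arrays (0.29, adjusted p = 0.18, without stage II replicate 2).

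Inside the cell, Fabp proteins exchange fatty acids with the triglyceride store. Of 14 measured genes of storage and lipolysis (of 21 listed), 3 rose and 1 fell in stage II against control, with a median of 0.21. Mgll, which cleaves the last fatty acid from glycerol, read 8.39 to 8.58 in control and 9.21, 9.18 and 9.58 in stage II, and it rose by 0.83 ± 0.09 (limma adjusted p = 5.2e-05). Pnpla2, the lipase of the first step of lipolysis, rose by 0.67 ± 0.11 (adjusted p = 0.001), with stage II at 8.89 to 9.31 and control at 8.28 to 8.55. Gpam, the mitochondrial acyltransferase of the first step of triglyceride synthesis, fell by 0.60 ± 0.13 (adjusted p = 0.0075). Both lipases were also higher in stage II than in stage I, Mgll by 0.90 ± 0.10 (limma adjusted p = 0.00034) and Pnpla2 by 0.67 ± 0.12 (0.0056), the latter with an adjusted p of 0.053 when the 2 stages were fitted alone.

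Fatty acid oxidation genes showed small differences. Of 11 measured (of 22 listed), 1 rose and 2 fell in stage II against control, and the median was 0.01. Cpt2, the carnitine transferase of the inner mitochondrial membrane, fell by 0.35 ± 0.08 (limma adjusted p = 0.0083), and Acaa2, a mitochondrial thiolase, fell by 0.30 ± 0.06 (adjusted p = 0.0062). Both calls were lost with replicate number as a block in the model (adjusted p = 0.078 and 0.068). The gene that rose was Acadvl, by 0.21 ± 0.06 (adjusted p = 0.039), a call that ended without any of several single arrays (adjusted p up to 0.11, without stage II replicate 1).

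**Figure D2:**
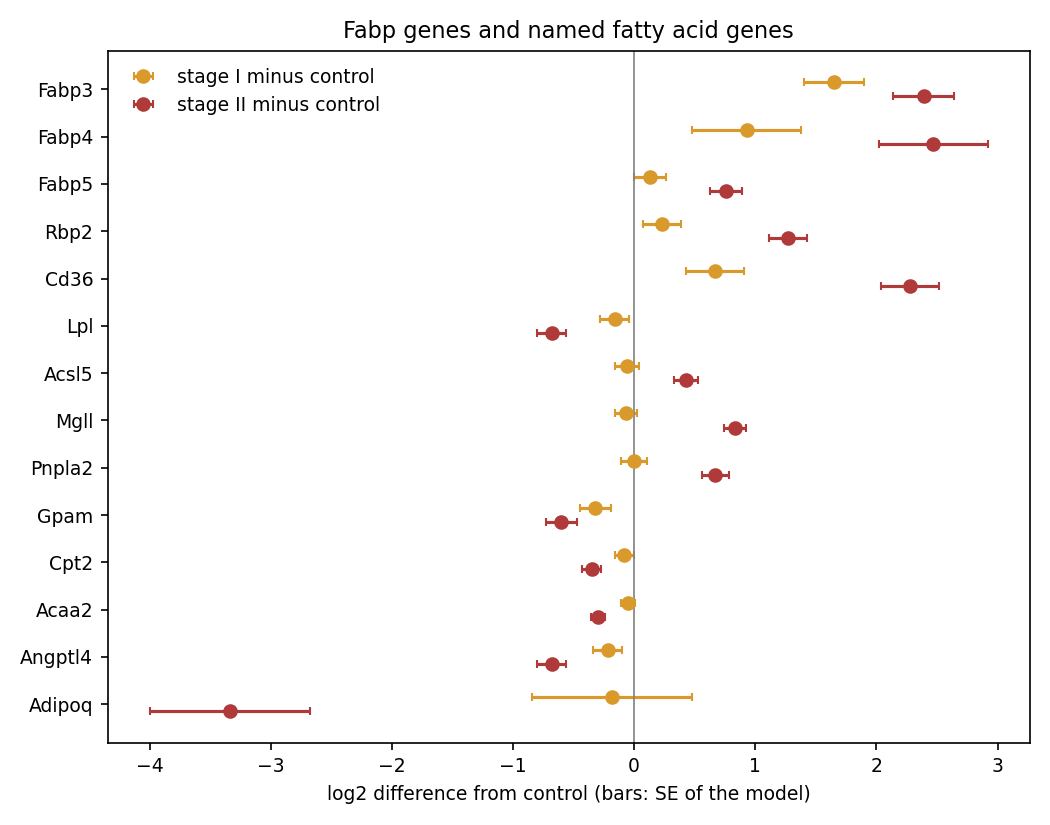
Log2 difference from control (horizontal axis) in stage I and stage II for Fabp3, Fabp4, Fabp5 and 11 other genes named in the text; bars are the standard error of the model. Fabp3, Fabp4 and Cd36 lie above 2 in stage II, Fabp3 is the gene farthest from 0 in stage I, and Adipoq lies below -3 in stage II.

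The receptors that Fabp4 and Fabp5 are known to supply, and genes those receptors are known to drive, were also listed. Of 10 measured genes of the PPAR and RXR receptors and their co-regulators, 2 fell in stage II, the co-activator Med1 (-0.32, limma adjusted p = 0.01) and the co-repressor Nrip1 (-0.38, 0.027). Both calls were lost without stage II replicate 3, at -0.26 (0.065) and -0.30 (0.15). Pparg and Ppard, named here after their values were seen, differed by 0.27 (adjusted p = 0.14) and 0.13 (0.52). Among 11 measured PPAR target genes, 2 rose and 1 fell in stage II against control, with a median of 0.12. The 2 that rose were Cd36 and Mgll, already given, and the gene that fell was Angptl4, an inhibitor of lipoprotein lipase (-0.68 ± 0.12, adjusted p = 0.0018). Angptl4 read 10.07 to 10.60 in control and 9.61 to 9.84 in stage II. Of 9 measured genes of retinoid handling, Aldh1a1, which makes retinoic acid, rose by 0.34 ± 0.08 (adjusted p = 0.01), and Lrat, which esterifies retinol, fell by 0.64 ± 0.21 (0.047). The Lrat call was lost without most single arrays (-0.39, adjusted p = 0.27, without stage II replicate 3).

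Fabp genes are abundant in several cell types of an ovary sample, so the markers of those types were read on the same arrays. In such whole-tissue samples, fewer cells of a type and less RNA per cell cannot be told apart. The samples carried the ovary's own markers, with control means of 13.44 for Inha of the granulosa, 9.29 for Zp3 of the oocyte and 12.12 for Star of the steroid-producing cells. In stage II all 5 measured granulosa markers and all 7 measured oocyte markers fell, with medians of -0.72 and -0.81, as did 1 of 4 theca and luteal markers.

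Fabp4 and Adipoq differed from control in opposite directions in stage II. Of 10 measured adipocyte markers, 2 fell in stage II against control and 3 differences were above 0, with a median of -0.08. The mean of the list ran from 6.77 to 7.33 in control, 6.45 to 6.94 in stage I and 6.45 to 6.57 in stage II. Adipoq, the adipocyte hormone adiponectin, read 6.29, 8.52, 8.49, 9.01, 9.88 and 9.65 in control replicates 1 to 6, and 7.89, 8.16 and 9.31 in stage I. It read 4.85, 6.17 and 4.88 in stage II, below every other array, and fell by 3.34 ± 0.66 (limma adjusted p = 0.0042). The other was Car3 (-0.81, adjusted p = 0.042), whose call was lost without most single arrays (-0.75, 0.16, without stage II replicate 3). Over the 12 arrays Pearson's r of Fabp4 and Adipoq was -0.43 in levels and 0.80 as deviations from group means. As a group, the stage II arrays had the highest Fabp4 and the lowest Adipoq of all 12.

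Among the controls alone the relation ran the other way. Fabp4 and Adipoq put the 6 control arrays in the same order, from replicate 1 through 3, 2, 4 and 6 to replicate 5. Pearson's r was 0.98 and Spearman's rho 1.0 over these 6 arrays, and r was 0.82 without control replicates 1 and 5, the 2 farthest from the median Adipoq. These values are a description with no test, since the relation was singled out after values were seen. Adipoq is 1 of the 10 adipocyte markers, and against the mean of that whole list Fabp4 had an r of 0.63 in the controls (rho 0.77). Against the mean of the macrophage markers r was 0.75 (rho 0.77), and against that of the endothelial markers it was -0.39 (rho -0.09). For Fabp3 and Adipoq r was 0.67 and turned to -0.39 without the same 2 arrays, and for Fabp5 and Adipoq it was 0.79 and turned to -0.68. In deviation from the control mean, Fabp4 stood at 2.82, 2.48 and 2.12 in stage II, where Adipoq stood at -3.79, -2.47 and -3.76. The part of ovarian fat in the Fabp4 levels was not tested.

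**Figure D3:**
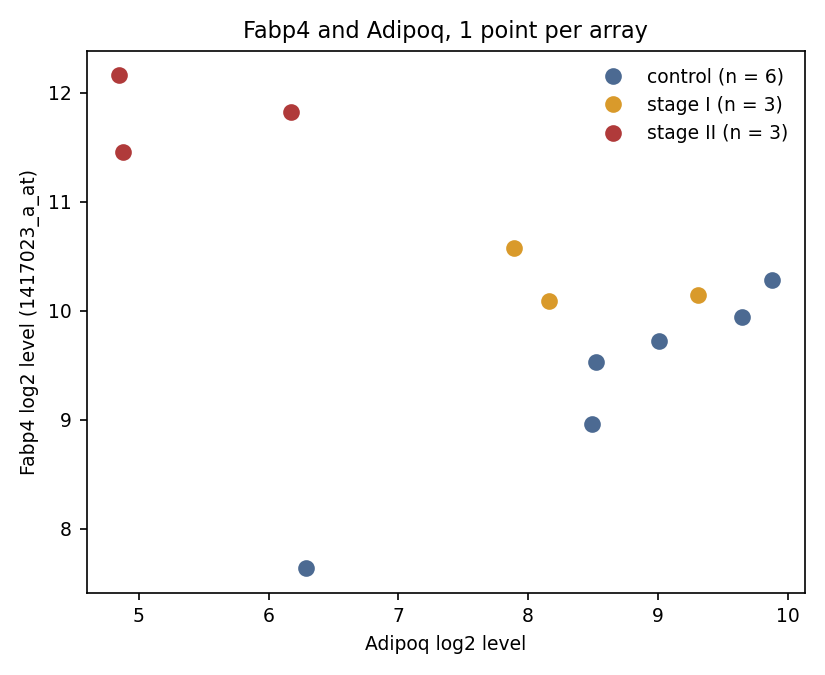
Fabp4 log2 level (probe set 1417023_a_at, vertical axis) against Adipoq log2 level (horizontal axis), 1 point per array, coloured by group. The 6 control points climb together, the 3 stage I points lie near the controls' upper end of Fabp4, and the 3 stage II points combine the highest Fabp4 with the lowest Adipoq.

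Fabp4 is also known in endothelial cells, and most of their markers stood slightly higher in stage II. Of 12 measured endothelial markers 2 rose in stage II against control and 11 of 12 differences were above 0, with a median of 0.21. The list's mean ran from 7.69 to 8.14 in control, 7.74 to 7.81 in stage I and 8.00 to 8.20 in stage II. Flt1, a receptor for VEGF, rose by 0.82 ± 0.17 (limma adjusted p = 0.0058). Robo4 rose by 0.37 ± 0.10 (adjusted p = 0.018), a call lost without stage II replicate 1 or 3 (0.33 without replicate 3, adjusted p = 0.094), and Pecam1 differed by 0.21 (adjusted p = 0.33).

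Macrophages make both Fabp4 and Fabp5, and most of their markers rose. Of 9 measured, 6 rose in stage II against control, with a median of 0.50. In stage I against control the median was already 0.44, with 9 of 9 differences above 0 and 0 calls. In stage II against stage I it was 0.06, with 1 call, that of Cd14. The list's mean ran from 8.32 to 8.57 in control, 8.47 to 9.24 in stage I and 8.99 to 9.26 in stage II. Cd14, a co-receptor for bacterial lipopolysaccharide, rose by 2.50 ± 0.21 in stage II against control (limma adjusted p = 6.2e-06). Its highest stage I array was replicate 1 at 8.75, as it was for Fabp3, Fabp4 and Fabp5. Among the controls alone, Fabp5 had an r of 0.37 (rho -0.09) with the mean of the macrophage markers. Aif1 rose by 0.85 ± 0.17 (adjusted p = 0.0038), and Csf1r, the receptor of the macrophage growth factor, by 0.48 ± 0.10 (adjusted p = 0.0056). The calls of C1qa and Fcgr1 were lost without several single arrays (adjusted p = 0.17 and 0.16 without stage II replicate 3).

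Of 7 measured epithelial markers 2 rose in stage II against control, the keratin Krt8 by 3.59 ± 0.32 (limma adjusted p = 1e-05) and the junction protein Cldn3 by 1.42 ± 0.16 (7e-05), while Epcam differed by -0.67 (0.15). The list's mean ran from 6.74 to 8.66 in control, 7.70 to 8.62 in stage I and 7.78 to 8.97 in stage II. It includes Ovgp1, which varied widely inside each group. Ovgp1 ran from 6.16 to 12.70 in control, 6.21 to 11.77 in stage I and 5.94 to 11.58 in stage II. Of the 7 differences 4 were above 0. Striated muscle, the known home of Fabp3, was represented by 8 dim markers, whose mean ran from 4.58 to 4.73 in control, 4.65 to 4.76 in stage I and 4.81 to 5.09 in stage II. Of the 8 differences of stage II from control, 5 were above 0, with a median of 0.10, and 2 were called higher. Actn3 rose by 0.71 ± 0.10 (limma adjusted p = 0.00057) and Myh1 by 1.31 ± 0.30 (0.01). Myh1 read 3.00 to 3.25 in the controls and rose by 0.71 without stage II replicate 3. Its call was lost with replicate number as a block in the model (adjusted p = 0.079). The muscle kinase Ckm differed by 0.13 (0.33). The part of any of these cell types in the Fabp differences was not tested.

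**Figure D4:**
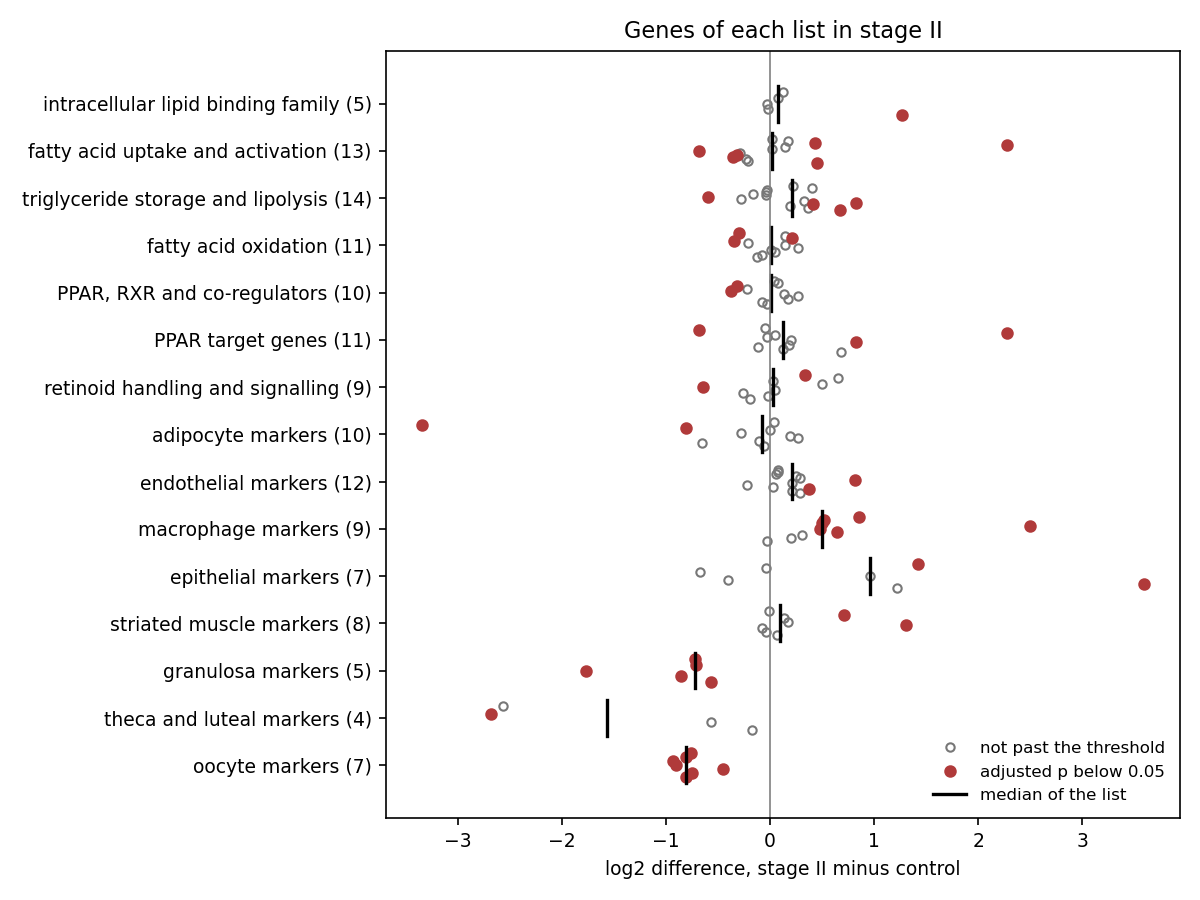
Log2 difference of stage II from control (horizontal axis) for each measured gene of 15 lists, with the number measured in brackets; filled points have an adjusted p below 0.05 and the black line is the median of the list. Cd36 is the farthest right of the uptake list and Adipoq the farthest left of the adipocyte list, and all granulosa and oocyte points lie below 0.

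The genes with levels most like each Fabp gene over the 12 arrays, by Pearson r, differed between the 3. For Fabp3 they were Svs5 (0.981), Tspan8 (0.976), Fga (0.972), Ptn (0.966) and Pmaip1 (0.964). All 5 had large stage II differences from control, between 4.01 for Ptn and 7.86 for Fga on the log2 scale, against 2.39 for Fabp3. For Fabp4 they were Prnp (0.958), Gsn (0.935), Pacs2 (0.925), Plod3 (0.923) and Dnajc14 (0.913), whose likeness includes the low control replicate 1. For Fabp5 they were Mmp2 (0.980), Prxl2c (0.966), Grina (0.958), Cst3 (0.957) and Sox5 (0.957), with control replicate 1 again the lowest control for each. The 3 sets shared no gene. Ranked instead by deviations from group means, which leave the group differences out, the nearest to Fabp3 were Abraxas1 (0.948), Ttpa (0.935) and Mta3 (0.926). To Fabp4 the nearest were Scd1 (0.902), Npdc1 (0.899) and Flcn (0.897), and to Fabp5 they were Mmp2 (0.958), Creg1 (0.934) and Rabep2 (0.924). Mmp2, a gelatinase, was the gene of these named that led both rankings of 1 Fabp gene. For every gene ranked by deviations, control replicate 1 was the lowest control and stage I replicate 1 the highest stage I array. The same holds for Fabp3, Fabp4 and Fabp5, so these likenesses include both arrays.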

How the data were processed

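The authors deposited log2 values, 1 per probe set and array. The platform annotation names them as Affymetrix mouse probe sets. How the scans were summarized and normalized is not given in the sources used here. Trizol extraction, a column clean-up and a biotin label are stated per the labels. Array medians lay between 7.09 and 7.15 and pairwise array correlations between 0.9673 and 0.9969, so a change of total RNA per cell cannot be seen. The number of arrays limits the precision, and p-values measure only the spread between these samples, part of which may be technical.

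Of 16376 probe sets, 14674 had 1 gene symbol. Each of 10949 genes was represented by its probe set with the highest mean. In R 4.3.3, limma 3.58.1 (lmFit, eBayes) fitted 1 mean per group over the 12 arrays, with 9 residual and 3.13 prior degrees of freedom. P-values were adjusted by Benjamini-Hochberg over all genes. At an unadjusted p below 0.05, 698 genes passed for stage I minus control, 3677 for stage II minus control, and 2973 for stage II minus stage I. The script was tested on simulated data.

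The Fabp genes and the gene lists were chosen with earlier results of these data known. The naming rule took from each list up to 4 called genes of largest difference or up to 2 as values, all measured lipid binding family genes, the first measured marker of each marker list, the 5 genes most like each member in level and 3 in deviation, and 3 measured neighbours on each side. The text names part of them. Likeness left out predicted genes. Promoter sequence and gene order come from RefSeq (GRCm38.p6), where 1 of the 3 genes had a promoter entry.

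Alternatives were quantile normalization, centred medians, dropping the dimmest 25 percent, the mean of probe sets, every probe set as its own row (for counts of calls), array weights, fitting the compared groups alone, a trended robust prior, the replicate block and each array left out. Omitting control replicates 1 and 4 at once was added after seeing the data.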

Additional observations from a re-analysis of the deposited data

Results flagged for a closer look

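In the 6 control arrays, 52 probe sets or genes described above were checked for an array far from the others, and 3 had one; chance gives about 1 in 20. For Fabp5 (1416021_a_at), control replicate 1 read 11.20 and the other 5 read 11.48 to 11.56, and its gap made up 0.77 of the group's range. For Robo4, control replicate 4 read 7.53 against 7.09 to 7.22, a gap of 0.69 of the range. For Myh1, control replicate 3 read 3.00 against 3.17 to 3.25, a gap of 0.67. Without control replicate 1 the stage II difference of Fabp5 from control was 0.71 on the log2 scale, against 0.76 with it.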

How the results depend on the processing

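Leaving out single arrays moved the stage II differences of Fabp3, Fabp4 and Fabp5 from control between 2.26 and 2.50, 2.13 and 2.66, and 0.71 and 0.80 on the log2 scale. Fabp4 in stage II against control was 1.41 with the mean of its probe sets, a mean that includes the 2 dim ones. Fabp5 in stage I against control ran from -0.09 (without stage I replicate 1) to 0.26, and in stage II against stage I from 0.50 to 0.85 (without stage I replicate 1). The stage I call of Fabp3 was also lost with the compared groups alone, with the replicate block and without control replicates 1 and 4 together, and the stage II against stage I call of Fabp5 was lost with the compared groups alone and with the replicate block. Deviations from the group means had correlations of -0.13 to 0.20 between samples with the same replicate number. Samples of unlike number were not compared, so these values do not settle whether the numbers pair the mice. With the replicate block, limma called 6 genes in stage I against control (21 without it), 1090 in stage II against control (2302) and 602 in stage II against stage I (1370), and 25 distinct list genes in any of the 3 comparisons (47). Without control replicates 1 and 4 the stage I count was 13. In stage II against stage I the count was 393 with the compared groups alone and 2308 with array weights. Without single arrays the counts ran from 15 to 28 in stage I against control, from 1145 (without stage II replicate 3) to 2432 in stage II against control, from 605 (without stage I replicate 3) to 1610 in stage II against stage I, and from 31 (without stage II replicate 3) to 50 for the list genes called in any comparison. The count in stage II against stage I was 632 without stage I replicate 2 and 633 without stage II replicate 3. The causes were not tested. Of 85 calls of named genes, 38 were kept in every alternative run for them and 47 were lost in 1 or more. Among the lost were the stage II against control calls of Lpl, Csf1r, Aldh1a1 and Snrnp40 with the replicate block (limma adjusted p = 0.052, 0.051, 0.075 and 0.051). Without detection calls, no limit can be given for the dim Fabp4 probe sets.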
